A study of Mus musculus with 2 samples.

Results

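The cells described here are those of cluster 6, which the study's map of clusters labels proliferating T cells and its text describes by proliferation markers, among interstitial cells of the infarcted mouse ventricle. Members were chosen as every gene in the deposited comparison of genotypes for that cluster, which gave 703 genes out of 6477 distinct genes over the 18 cluster tables used. Each gene carried 2 values, the share of cluster 6 cells with its transcript in the PostnMCM control library and the share in the library labelled Yap/Wwtr1-depleted. Differences below are the second share minus the first, in percentage points of cells.

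Both libraries were made by droplet single-cell RNA sequencing of sorted viable interstitial cells, 1 library per genotype. Control mice carried PostnMCM, in which the Postn locus drives a Cre recombinase that tamoxifen switches on. The other mice were Yapfl/fl;Wwtr1fl/+;PostnMCM, so that loxP sites flanked Yap1 on both alleles and Wwtr1 on 1 allele. Per the study's methods both genotypes also carried a Rosa26-eGFP reporter transgene, and all animals were adults. All received chow with 0.4 g/kg tamoxifen starting after myocardial infarction. Hearts were collected 6 days after infarction per the labels, and the study's methods give another day. Postn is expressed in fibroblasts that become myofibroblasts and is not a T cell gene, so the deletion was aimed at the cells around cluster 6 and not at cluster 6 itself. How many animals entered each library is not given in the sources used here. Yap1, Wwtr1 and Postn are in neither the cluster 6 table nor any other of the 18 cluster tables. In 4 separately normalized tables of fibroblast subclusters (0, 3, 4 and 5), Yap1 went from 46.2% of control cells to 56.2%, from 23.3% to 43.5%, from 57.5% to 40.0% and from 30.4% to 47.6%. Its share was thus larger in the library labelled depleted in 3 of the 4, against the label. Wwtr1 went from 81.4% to 90.6%, 93.3% to 91.3%, 80.0% to 60.0% and 100% to 85.7%, with the smaller share in 3 of the 4. Among these 3, the difference in subcluster 3 was -2.0 points, less than the gap between neighbouring control shares there. A share of cells with a transcript does not show whether its floxed part was lost, so these values do not check the deletion, and every direction below rests on the label.

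A dividing T cell passes from DNA replication, in S phase, through the G2 gap to mitosis. Replication needs the minichromosome maintenance (Mcm) helicase, the sliding clamp Pcna, clamp loaders and newly made histones, while mitosis needs cyclin B, the kinase Cdk1, the anaphase-promoting complex and spindle proteins. Transcripts of the first group are made around the start of S phase under E2F factors, and those of the second peak in G2 and mitosis. Developing T cells in the thymus divide before they carry a finished receptor, use the Rag1 recombinase to assemble it, and pass through a stage with both CD4 and CD8.

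With 1 library per genotype there is no replicate, and no test, error or p-value is given. The study gives cells and reads for the whole libraries only. The number of cells and reads behind each share of cluster 6 is not in the tables, so no interval can be given. The study describes cluster 6 as coming mainly from the library labelled depleted. The control shares took 28 distinct values over the 703 genes, spaced 3.7 to 3.8 points apart, and the shares of the library labelled depleted took 291. A difference smaller than one such step of 3.7 points cannot be read in the control library, and 10 points span fewer than 3 such steps. A difference of at least 10 points is called higher or lower below, as a rule of size and not of significance.

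The cluster name was first set against T cell and proliferation genes. Of 20 genes of the T cell receptor complex and T cell identity, 2 were listed. Cd247, the zeta chain of the receptor complex, was in 66.7% of control cells and 79.7% of cells from the library labelled depleted. Cd5, a surface regulator of receptor signalling, was in 7.4% and 26.8%. The coreceptor genes Cd8b1 and Cd4 differed by less than 1 control step, at 81.5% and 82.8% for Cd8b1 and 51.9% and 53.8% for Cd4. None of the 18 genes of T cell activation and none of the 21 genes of cytotoxic and effector function was listed. A gene missing from the table has no value here, because the authors listed only genes above limits on both detection and difference. Top2a and Mki67, the proliferation markers that the study names for this cluster, are among the genes without a value, but 25 of 49 S phase genes and 20 of 72 G2/M genes were listed, with shares up to 100% in both libraries.

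Of 18 genes of T cell development in the thymus, 5 were listed, 2 of them higher and 3 within 10 points, in a table with 24.8% of genes higher and 51.1% lower. Rag1 was in 63.0% of control cells and 72.4% of cells from the library labelled depleted. Satb1, a chromatin organiser of thymocytes, was in 92.6% and 96.3%, and the chemokine receptor Ccr9 was in 63.0% and 64.8%, less than 1 control step apart. Tcf12, which encodes the E protein HEB, was in 66.7% and 78.9%. Ly6d, a surface protein of early lymphoid cells, had the largest difference of the list, from 29.6% to 60.8%. The cells of cluster 6 carried genes of dividing cells and of the T lineage, with genes of thymic development among them in both libraries.

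Some of these transcripts were also found in cells that should lack them. In the 4 fibroblast subclusters, which the authors normalized separately, Rag1 was in 0.0% to 3.3% of control cells and in 14.3% to 40.0% of cells from the library labelled depleted. Cd8b1 was in 0.0% to 10.0% and 20% to 28.6% of fibroblasts, and Cd4 in 0.0% to 3.4% and 4.8% to 10.0%. The shares of these 3 genes in cluster 6 exceeded all of their shares in fibroblasts. Tcf12 did not mark T lineage cells here, with 55% to 67.6% of control fibroblasts and 60.9% to 90.5% of fibroblasts from the library labelled depleted. The difference for Rag1 was 9.4 points in cluster 6 and 14.3 to 40.0 points in the fibroblast subclusters, and the part of free RNA in it was not tested.

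**Figure D1:**
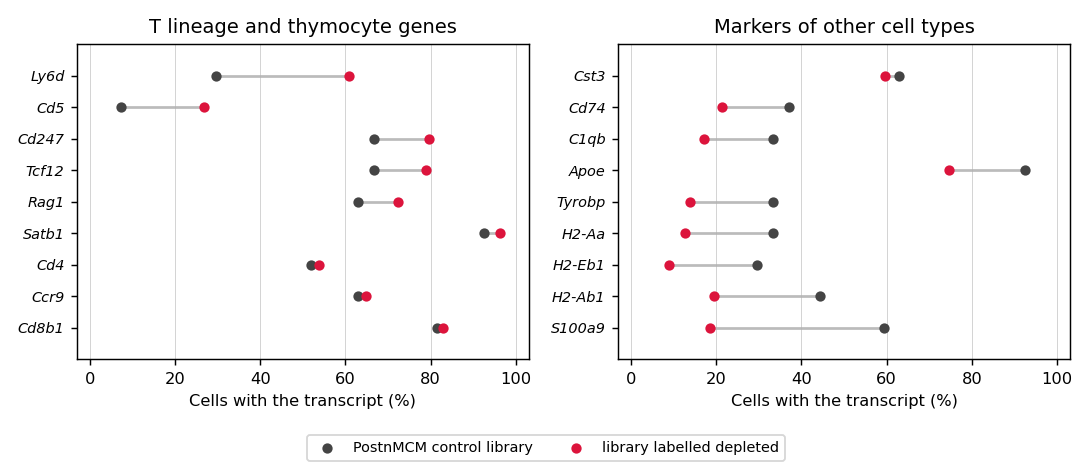
Share of cluster 6 cells with the transcript (x axis, percent) for the listed T lineage and thymocyte genes (left) and the listed markers of other cell types (right), 1 library per genotype. On the left, Ly6d, Cd5, Cd247 and Tcf12 were higher by at least 10 points in the library labelled depleted and Cd4, Cd8b1 and Ccr9 differed by less than 1 control step. On the right, 8 of 9 genes were lower by at least 10 points and Cst3 differed by less than 1 control step.

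Markers of other cell types moved the other way. Of 97 such genes in 9 lists, 9 were listed in cluster 6, 8 of them lower in the library labelled depleted and 0 higher, where 51.1% of all listed genes were lower and 24.8% higher. S100a9, an abundant neutrophil transcript, was in 59.3% of control cells and 18.6% of cells from the library labelled depleted. The macrophage genes Apoe, Tyrobp and C1qb went from 92.6% to 74.6%, from 33.3% to 13.8% and from 33.3% to 17.2%. The MHC class II genes H2-Ab1, H2-Aa, H2-Eb1 and Cd74 had control shares of 29.6% to 44.4% and shares of 9.0% to 21.4% in the library labelled depleted. Cst3 differed by 3.3 points, less than 1 control step. No gene of the dendritic cell, fibroblast, endothelial, cardiomyocyte or erythroid lists was listed. In fibroblasts S100a9 was likewise in 85.0% to 96.7% of control cells and 38.1% to 60.0% of cells from the library labelled depleted. Whether free RNA or mixed droplets set these differences was not tested, and they stand beside every lower value below.

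Over the whole table, 359 genes were lower by at least 10 points in the library labelled depleted (51.1% of 703) and 174 were higher (24.8%). The remaining 170 lay within 10 points, among them 46 that were above 95% in both libraries. The median difference was -10.6 points, with the median share at 59.3% in the control library and 49.9% in the library labelled depleted. The table holds genes that already differed between these libraries, so these percentages describe what was listed and serve as the background for each gene list. Measured from the median difference in place of 0, 263 genes were higher and 188 lower by at least 10 points, so which direction held more genes depends on the centring. Differences ran from -95.7 points for BC018473 to 66.8 points for Gm43305.

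**Figure D2:**
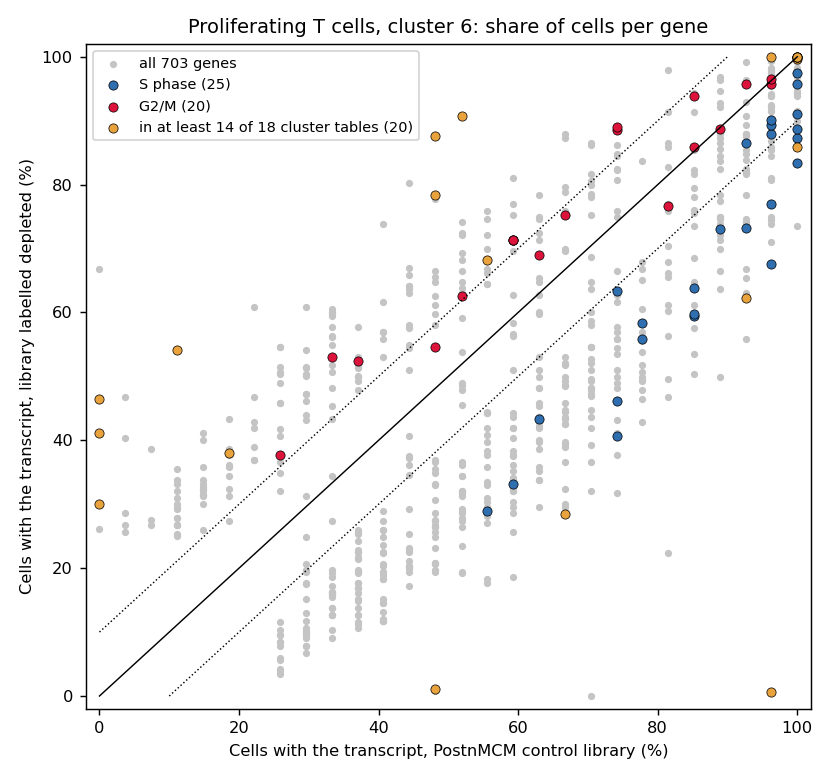
Share of cluster 6 cells with each of 703 transcripts in the control library (x axis, percent) and in the library labelled depleted (y axis, percent). The solid line marks equal shares and the dotted lines a difference of 10 points. S phase genes lie below the line of equal shares, most G2/M genes on or above it, and genes shared by at least 14 of 18 cluster tables hold several of the most distant points.

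Genes of DNA replication had smaller shares in the library labelled depleted. Of the 25 S phase genes listed, 18 were lower by at least 10 points, 0 were higher and 7 lay within 10 points, against 51.1% lower and 24.8% higher over the table. Their median difference was -19.4 points against -10.6 points for the table. Many of them were in nearly every control cell, so a lower share was the direction open to them.

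Ccne2, which encodes cyclin E2, the partner of Cdk2 at entry into S phase, was in 74.1% of control cells and 40.6% of cells from the library labelled depleted, the largest difference of the list. Its relative Ccne1 lay outside the list and went from 66.7% to 30.1%. The helicase subunits Mcm4, Mcm2, Mcm5 and Mcm3 had differences of -25.5, -19.5, -19.4 and -19.4 points. Mcm4 was in 85.2% and 59.7% of cells, and Mcm3 in 96.3% and 76.9%. Cdc45 and Gins2, which join the Mcm ring to form the active helicase, went from 77.8% to 55.8% and from 59.3% to 33.2%. All of these genes had the smaller share in the library labelled depleted.

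Genes of proteins that act behind the fork had differences of unequal size, from -36.8 points for Rpa1 to -5.0 for Lig1, the ligase that joins new DNA strands. Rpa1, Rpa3, Rfc1, Rfc3, Lig1, Pole and Chek1 lay outside the S phase list, and the first, Pole and Chek1 are named because they were among the largest differences. Rpa1 and Rpa2, subunits of the complex that coats single-stranded DNA, went from 92.6% to 55.8% and from 74.1% to 46.2%, while Rpa3 of the same complex differed by -14.0 points. The clamp loader genes Rfc2 and Rfc4 went from 85.2% to 59.4% and from 88.9% to 73.0%, Rfc3 and Rfc1 differed by -15.8 and -5.2 points, and Pcna itself from 100% to 88.7%. Pole, the catalytic subunit of the leading strand polymerase, was in 66.7% of control cells and 32.4% of cells from the library labelled depleted. The genes Prim2 (primase), Pold2 and Pole2 (polymerase subunits), Topbp1 and Timeless, chosen after their values were seen, went from 70.4% to 43.7%, 59.3% to 37.5%, 40.7% to 25.9%, 96.3% to 71.0% and 66.7% to 42.5%. Chek1, the checkpoint kinase of stalled forks, went from 63.0% to 29.6%. Hells, a chromatin remodeller of replicating cells, went from 96.3% to 67.6%, and Chaf1b, a subunit of the chromatin assembly factor that loads histones onto new DNA, from 55.6% to 29.0%. The smallest differences of the list belonged to the nucleotide synthesis genes Dut and Rrm2, at -2.5 and -4.2 points from control shares of 100%.

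Genes of G2 and mitosis stood on the other side. Of 20 listed, 9 were higher by at least 10 points in the library labelled depleted (the table as a whole had 24.8% higher) and 0 were lower, with a median difference of 8.6 points against -10.6 for the table. Ckap2, a spindle protein, had the largest difference, from 33.3% of control cells to 53.0% of cells from the library labelled depleted. Ube2c and Cdc20, an enzyme and an activator of the anaphase-promoting complex, went from 74.1% to 88.5% and from 59.3% to 71.3%. Cdca3, which targets the mitosis inhibitor Wee1 for removal, went from 74.1% to 89.0%. The centromeric histone Cenpa and the midzone motor Kif23 had the same values as Cdc20, and Ccnb1, cyclin B1, went from 51.9% to 62.5%. Cdk1 and Plk1, the main mitotic kinases, were within 10 points, at differences of 8.6 and 6.0. Ccnb2 was the lowest member, from 81.5% to 76.6%.

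A few mitotic genes outside that list did not share one direction. Aspm, a spindle pole protein, was listed in cluster 6 alone and went from 33.3% to 60.0%. Pttg1, which encodes securin, the inhibitor that is destroyed at the onset of anaphase, went from 55.6% to 17.7%, one of the 15 largest differences downwards. In cluster 10, the other cluster of proliferating T cells, Pttg1 went from 63.6% to 23.7%. In the fibroblast cluster it went from 12.8% to 29.4%, in the macrophage clusters 0 and 3 from 6.1% to 32.0% and from 7.1% to 32.0%, and in the T cell cluster 7 from 11.1% to 30.2%. Tuba1c, a tubulin gene of the G2/M list, went from 37.0% to 52.4%, while Tuba1a, whose transcript is 98.5% identical to it over 1307 bases, went from 48.1% to 34.9%.

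**Figure D3:**
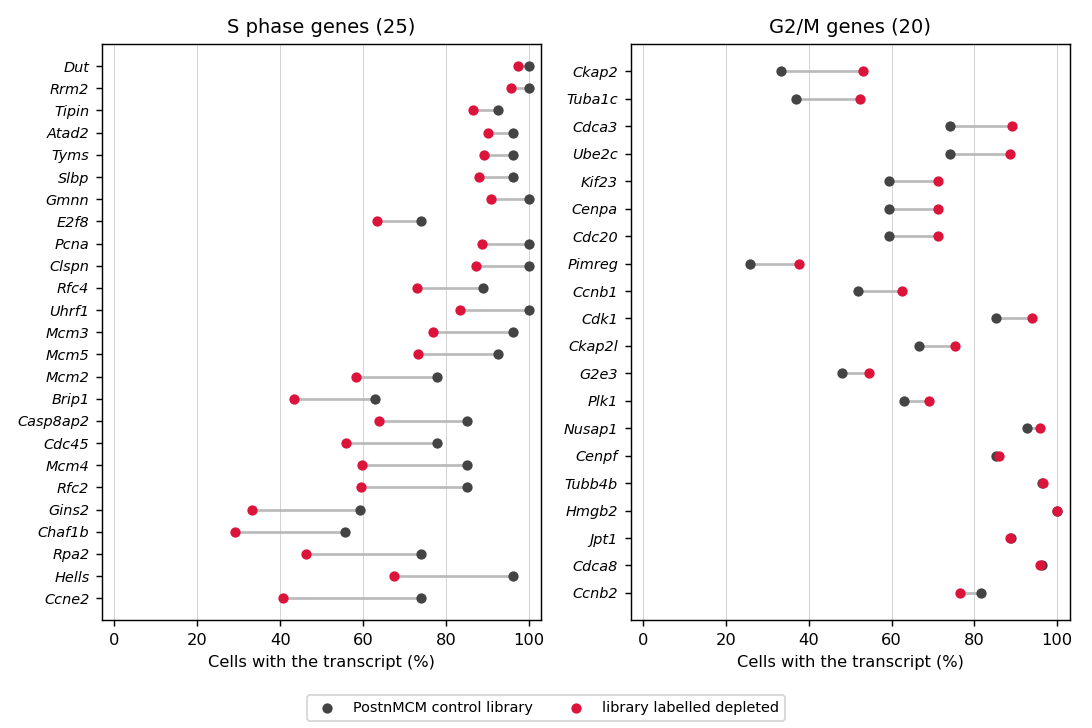
Share of cluster 6 cells with the transcript (x axis, percent) for the 25 listed S phase genes and the 20 listed G2/M genes, each line joining the control library to the library labelled depleted. In the library labelled depleted 18 S phase genes are at least 10 points lower, and 9 G2/M genes, from Ccnb1 to Ckap2, are at least 10 points higher there.

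Since 0 S phase genes were higher and 0 G2/M genes lower by at least 10 points, promoters of both groups are shown. The sequences come from RefSeq (build GRCm38.p6, which differs from the build of the files) and were searched in the 250 bases before each transcription start, on both strands. Of the listed genes, 18 of 25 S phase genes were found there with 19 promoters, and 19 of 20 G2/M genes with 19. E2F letters were TTTCCCGC, TTTGGCGC, TTTCGCGC and TTTGCCGC, the CHR element of late cell cycle genes was TTTGAA, and the CCAAT box was CCAAT. Those shown for S phase, each with E2F letters, belong to Hells (chr19:38930790-38930989, plus strand), Casp8ap2 (chr4:32615270-32615469, plus strand), Mcm5 (chr8:75109309-75109508, plus strand) and Uhrf1 (chr17:56304113-56304312, plus strand). For G2/M, the promoters of Tuba1c and Cdca3 held CCAAT but no CHR letters in the 200 bases before the start and are not printed. Their differences lay between those of Ckap2 and Ube2c. Those shown for G2/M, of Ckap2 (chr8:22185820-22186019, minus strand) and Ube2c (chr2:164769729-164769928, plus strand), hold both CHR and CCAAT letters. Each is printed 5′ to 3′ up to the base before the start, with E2F and CCAAT letters in capitals in the first 4, and CHR and CCAAT letters in the last 2. The E2F letters on both strands overlap in Mcm5, as do the first CCAAT pair in Ube2c.
Hells: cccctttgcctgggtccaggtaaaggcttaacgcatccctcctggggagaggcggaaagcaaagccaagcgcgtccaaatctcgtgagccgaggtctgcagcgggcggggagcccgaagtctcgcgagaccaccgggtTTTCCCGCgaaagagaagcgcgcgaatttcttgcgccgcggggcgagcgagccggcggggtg
Casp8ap2: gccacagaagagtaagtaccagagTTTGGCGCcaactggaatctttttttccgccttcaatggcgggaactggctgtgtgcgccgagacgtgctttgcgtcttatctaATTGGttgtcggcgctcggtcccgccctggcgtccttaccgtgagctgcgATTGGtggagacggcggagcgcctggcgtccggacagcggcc
Mcm5: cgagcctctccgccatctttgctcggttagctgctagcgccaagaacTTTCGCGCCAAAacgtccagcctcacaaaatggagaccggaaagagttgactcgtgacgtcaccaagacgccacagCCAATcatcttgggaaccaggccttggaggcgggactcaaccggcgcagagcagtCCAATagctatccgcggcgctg
Uhrf1: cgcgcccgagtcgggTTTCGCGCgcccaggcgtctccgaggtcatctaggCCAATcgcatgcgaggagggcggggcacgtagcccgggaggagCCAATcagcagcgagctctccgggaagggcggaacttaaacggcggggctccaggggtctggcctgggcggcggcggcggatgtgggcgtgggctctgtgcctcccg
Ckap2: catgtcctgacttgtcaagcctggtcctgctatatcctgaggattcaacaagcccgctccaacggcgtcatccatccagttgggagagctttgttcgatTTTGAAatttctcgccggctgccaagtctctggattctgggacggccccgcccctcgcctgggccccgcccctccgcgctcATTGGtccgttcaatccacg
Ube2c: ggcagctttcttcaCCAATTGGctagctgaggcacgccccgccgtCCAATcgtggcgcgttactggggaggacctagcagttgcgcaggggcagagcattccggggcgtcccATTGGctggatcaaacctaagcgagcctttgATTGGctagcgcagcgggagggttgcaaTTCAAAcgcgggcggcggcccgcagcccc

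E2F letters were in 4 of the 19 S phase promoters (21.1%), in 1 of the 19 G2/M promoters (5.26%) and in 1.86% of all 32851 promoters of that length. CHR letters were in 3 S phase promoters (15.8%), 8 G2/M promoters (42.1%) and 16% of all promoters. CCAAT letters were in 14 S phase promoters (73.7%), 17 G2/M promoters (89.5%) and 33.8% of all promoters. Over the 711 promoters of 573 genes of the cluster 6 table, the shares were 4.64%, 14.3% and 39.2%. The lists were drawn up from known cell cycle genes, so these letters describe the lists and not the difference between libraries.

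Histone genes, most of which are transcribed in S phase, were listed 22 times, with 7 lower by at least 10 points and 1 higher, a smaller part than the 51.1% lower over the table. The other 14 lay within 10 points, and the median difference was -5.5 points against -10.6 for the table. H2af-ps2, a histone pseudogene on chromosome 13, was in 70.4% of control cells and 0% of cells from the library labelled depleted. H2bc8, H2ac13, H2bc13 and H2ac11 went from 66.7% to 29.6%, 81.5% to 49.6%, 74.1% to 43.1% and 59.3% to 29.6%. H3c13 was the member that was higher, from 51.9% to 63.1%. Histone genes are near copies of each other, with H2ac13 and H2ac11 99.2% identical over 389 bases, so the share of each single copy is uncertain.

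Cluster 10, which the study's map of clusters also labels proliferating T cells, and cluster 9, which the map labels T cells although the text does not list it among them, were taken for comparison as the tables that share most genes with cluster 6 (261 and 208 genes, 37.1% and 29.6% of its table). Their tables are among the longest, with 1691 and 1302 genes, and the dendritic cell cluster 17, with 1914 genes, shared 204 (29.0%). As a part of each table, the overlap ran from 10.7% in cluster 17 to 40.3% in cluster 2, with 15.4% in cluster 10. The counts thus depend on table length and do not show that these clusters are alike. Clusters 9 and 10 share both libraries with cluster 6, so their values are set side by side. Control shares are spaced more widely there, with 0%, 9.1%, 18.2% and 27.3% in cluster 10 and 29.4%, 35.3% and 41.2% in cluster 9. Thus 10 points span little more than 1 gap in cluster 10, and fewer gaps in cluster 9 than in cluster 6. In cluster 10, 12 of 20 listed S phase genes were higher by at least 10 points and 1 was lower, with a median of 12.6 points, in a table with 43.8% higher and 34.6% lower. Its 15 listed G2/M genes had 2 higher and 5 lower, with a median of -5.5 points. In cluster 9, 12 of 14 S phase genes were lower and 1 higher, with a median of -19.5 points, in a table with 23.7% higher and 54.6% lower. Its 7 listed G2/M genes had 1 higher and 5 lower, with a median of -12.6 points. The difference between clusters was not tested, since each rests on the same 2 libraries.

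Single genes listed in both cluster 6 and cluster 10 were mixed. Cdc45 went from 77.8% to 55.8% in cluster 6 and from 9.1% to 33.9% in cluster 10. Rfc4 went from 88.9% to 73.0% in cluster 6, from 45.5% to 62.9% in cluster 10 and from 35.3% to 16.9% in cluster 9. E2f8, a repressor of the E2F family, differed the same way in both, by -10.7 points in cluster 6 and -11.7 in cluster 10. Among G2/M genes, Cdca3 went from 74.1% to 89.0% in cluster 6 and from 72.7% to 57.5% in cluster 10. Ckap2 and Tuba1c were higher in both clusters, by 19.7 and 15.4 points in cluster 6 and by 10.9 and 11.4 points in cluster 10. The differences of E2f8, Ckap2 and Tuba1c in cluster 10 barely exceed the gap between neighbouring control shares there. Over the 6 G2/M genes in both tables the medians were 12.8 points in cluster 6 and 1.8 in cluster 10, and over the 9 S phase genes they were -16.6 and 4.0. In the control library, S phase transcripts were in more cells of cluster 6 than of clusters 9 and 10, as for Mcm3 with 96.3%, 47.1% and 63.6% in clusters 6, 9 and 10.

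The antigen presentation list gave 9 genes, 5 of them lower and 1 higher, with a median of -11.5 points, near the 51.1% lower and the median of -10.6 points of the whole table. Measured from that median the list stood at -0.9 points. The lower members were Calr and Pdia3, chaperones of class I assembly, Psme2 and Psmb9, subunits of the proteasome that cuts peptides, and H2-K1, a classical class I heavy chain. Calr went from 96.3% to 74.4% and Psme2 from 77.8% to 56.9%. B2m, the class I light chain, was within 10 points, at 96.3% and 91.5%. H2-T22, a nonclassical class I gene, was the member that was higher, from 33.3% to 57.7%.

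Of 9 interferon-stimulated genes, 7 were lower and 2 were higher, where 51.1% of the table was lower and 24.8% higher. Their median was -15.3 points against -10.6 for the table, or -4.7 when measured from the table's median. Mndal and Ifitm2 went from 63.0% to 40.0% and from 33.3% to 15.5%. Apobec3, an antiviral cytidine deaminase, went from 11.1% to 54.1%, and Bst2, which encodes tetherin, from 14.8% to 41.1%. Both higher members were also listed with a larger share in the library labelled depleted in most cell types, Apobec3 in 14 of 14 cluster tables and Bst2 in 12 of 13. Mndal was the reverse, with 9 of its 11 tables having the larger share in that library and 2, cluster 6 included, the smaller. Mndal and Ifi203, which went from 37.0% to 25.9%, are 95.2% identical over 819 bases, so reads may be split between them.

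Nonclassical class I genes of the H2-T region were among the largest differences upwards. H2-T3, which encodes the thymus leukaemia antigen, was in 3.7% of control cells and 40.3% of cells from the library labelled depleted. In cluster 10 it went from 0% to 42.5%, and no other cluster listed it. H2-T10 went from 44.4% to 80.3%, and the pseudogene H2-T-ps from 22.2% to 60.8%. H2-T10 was listed in all 5 other tables that the map labels T cells (clusters 4, 7, 8, 9 and 10), with control shares from 0% to 36.4% and a higher share in the library labelled depleted in each. H2-T22 was higher in cluster 6 but went from 47.1% to 24.9% in cluster 9. H2-T10 and H2-T22 are 97.4% identical over 1495 bases, and their shares are uncertain for that reason.

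In the GENCODE M39 annotation of build GRCm39, H2-T22 (36348020 to 36353650), H2-T10 (36426768 to 36432357) and H2-T3 (36496464 to 36501179) lie in one stretch of the minus strand of chromosome 17. Glo1, which encodes glyoxalase 1, lies on the same chromosome (30803910 to 30845845) and went from 40.7% to 73.8%. Dynlt1b, a dynein light chain gene at 6697471 to 6703695 of chromosome 17, went from 3.7% to 46.8%. Chromosome 17 held 55 of the 682 genes with a position. Of these 55, 30.9% were higher and 56.4% lower, near the 24.5% and 51.5% over all 682. Chromosome 15 held 31 genes, 38.7% of them higher and 41.9% lower. Of the 61 genes higher by at least 20 points, 7 lay on chromosome 17 and 7 on chromosome 15, the latter including Apobec3, Ly6d and Polr2k. Of the 196 genes lower by at least 20 points, 17 lay on chromosome 17 and 8 on chromosome 15.

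Of the 703 genes, 122 (17.4%) were listed in cluster 6 and in no other cluster table. Of these, 86 were lower by at least 10 points (70.5%), 17 were higher (13.9%) and 19 lay within 10 points, with a median of -19.4 points. The 581 genes that another table also listed had 47.0% lower and 27.0% higher, with a median of -7.2 points. The 10 largest differences downwards of genes listed here alone were those of Rpa1, Ccne1, Pole, Ccne2, Chek1, H2ac13 and H2bc13, given above, of which Ccne2 belongs to the S phase list and the last pair to the histone list. The others were Kpna3, a nuclear import receptor (77.8% to 46.5%), Psmg1, a proteasome assembly chaperone (66.7% to 36.6%), and the noncoding 2810408I11Rik (51.9% to 19.2%).

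The 10 largest differences upwards among genes listed here alone were smaller, from 15.9 to 26.7 points. Behind Aspm came Rpph1, the RNA of ribonuclease P, from 0% to 26.2%, and Hibadh, an enzyme of valine breakdown, from 29.6% to 51.5%. Tnpo2, Cd5 and Srgap2 had control shares of 7.4%, 7.4% and 22.2% and shares of 27.6%, 26.8% and 38.9% in the library labelled depleted. Bod1l, Ddb1, Myef2 and Tdrkh completed the group, with differences of 16.5, 16.2, 15.9 and 15.9 points. Rpph1 overlaps Parp2 and Ccnb1ip1 in the annotation, so its reads cannot be assigned with certainty. Listing in 1 table alone also depends on the limits of the other tables, and a gene just under a limit elsewhere has no value there.

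**Figure D4:**
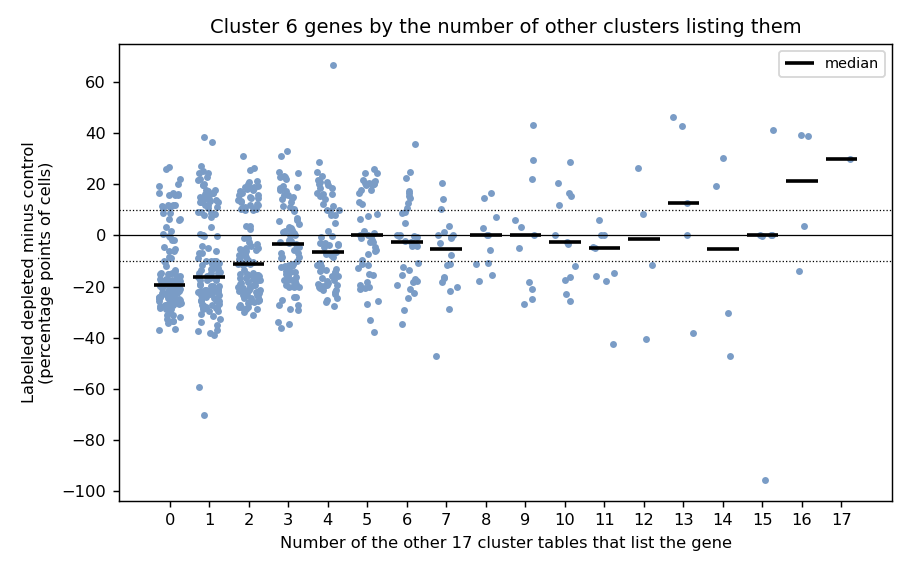
Difference in share of cells in cluster 6 (y axis, percentage points) for each of 703 genes, by how many of the other 17 cluster tables list the gene (x axis; points are spread sideways for visibility, bars are medians, dotted lines mark 10 points). The 122 genes listed here alone have a median of -19.4 points, and genes of at least 13 other tables include several with differences beyond 30 points in either direction.

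At the other end, 20 genes were listed by at least 14 of the 18 tables, and 14 of them differed by at least 10 points in cluster 6. BC018473, which makes a long noncoding RNA from chromosome 11, was in 96.3% of control cells and 0.6% of cells from the library labelled depleted. In none of its 16 tables did the second share exceed 1.1%. Chil3, a chitinase-like protein of myeloid cells, went from 48.1% to 1.1%, lower by at least 10 points in 13 of its 15 tables. Polr2k, a subunit shared by the RNA polymerases, went from 48.1% to 78.3% and was higher in 14 of its 15 tables, with 9.4 points in the other. St3gal4, a sialyltransferase gene, went from 18.5% to 38.0%. Rps3a1, Rplp1 and Rps25 were at 100% or 99.7% in both libraries, where a share cannot show a difference in level.

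For most of these genes the difference in cluster 6 lay inside the range of the other clusters. The difference of Gm7429 was 46.5 points against 27.9 to 56.2 elsewhere, and that of Apobec3 was 43.0 points against 18.1 to 66.2. Polr2k had 30.2 points against 9.4 to 39.5. Ftl1 and Chil3 lay outside, with -14.1 points against -2.2 to 0.6 for Ftl1 and -47.0 against -41.7 to 9.1 for Chil3.

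**Figure D5:**
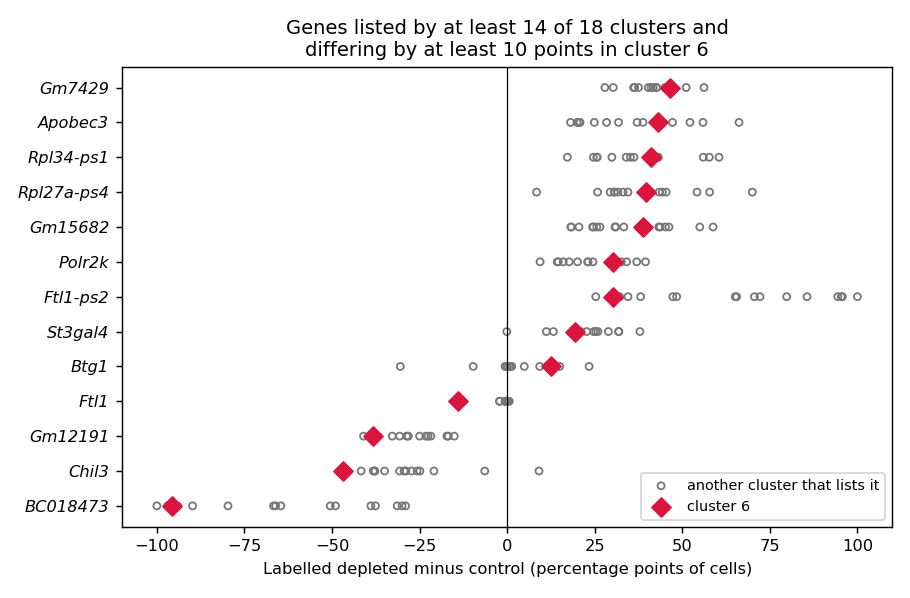
Difference in share of cells (x axis, percentage points) for 13 of the 14 genes that at least 14 of 18 cluster tables list and that differ by at least 10 points in cluster 6. Diamonds show cluster 6 and open circles each other cluster that lists the gene. Ftl1 and Chil3 are lower in cluster 6 than in any other cluster that lists them.

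Several of the largest differences belonged to pairs of near-identical genes that went in opposite directions. The noncoding gene Gm43305 on chromosome 14 went from 0% to 66.8%, and Gm42031 on chromosome 8, 98.7% identical to it over 750 bases, from 48.1% to 0.8%. Gm7429 and Gm12191, both near copies of the ribosomal gene Rpl30 and 99.1% identical to each other over 348 bases, went from 0% to 46.5% and from 66.7% to 28.5%. Rpl30 was in 100% of cells of both libraries. Ftl1-ps2, a copy of the ferritin light chain gene Ftl1, went from 0% to 30.1%, while Ftl1 went from 100% to 85.9%. Dynlt1b and Dynlt1f, 99.5% identical over 400 bases, went from 3.7% to 46.8% and from 66.7% to 52.1%.

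Of the 110 named genes listed in cluster 6, 107 had a transcript in the annotation, and 32 of these were at least 95% identical over at least 300 bases to a transcript of another gene. The files do not show how reads were divided between such copies, so the shares of single copies are uncertain. This holds also for Rpl34-ps1 (0% to 41.1%), Rpl27a-ps4 (48.1% to 87.6%), Gm15682 (51.9% to 90.7%), Ndufb4c (11.1% to 35.5%), Hmga1 (88.9% to 49.9%), H2bc8, Glo1, Ldhb and Psme2. Dynlt1b, Gm42031 and Gm43305 were listed in 10, 8 and 5 of the 18 tables, each with the same direction as in cluster 6.

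Among the remaining largest differences, most genes were shared with a few tables. Gadd45gip1, a protein of the mitochondrial ribosome, went from 74.1% to 31.8% and was lower in all 12 tables that list it. Hmga1, a chromatin protein of dividing cells, was otherwise listed in cluster 9 alone, where it went from 70.6% to 23.8%. Hdgfl3 went from 70.4% to 32.1%, Stard4, a cholesterol transporter, from 55.6% to 18.3%, and the unnamed transcript LOC118568032 from 81.5% to 22.3%. Rpgrip1, a protein known from photoreceptor cilia, went from 7.4% to 38.6% in cluster 6 and from 0% to 32.8% in cluster 10.

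Other gene groups showed smaller or mixed differences. Of 7 glycolytic genes, 6 were lower (Pfkp from 44.4% to 25.4%), against 51.1% over the table, and Ldhb, a subunit of lactate dehydrogenase, was higher, from 55.6% to 75.8%. The median of the list was -11.8 points, and -1.2 when measured from the table's median. Of 5 genes of apoptosis and survival, 2 were lower, among them Bax (66.7% to 49.9%), where 51.1% of the table was lower and 24.8% higher. Pdcd4 and Btg1, which restrain translation and growth, were higher (44.4% to 64.2% and 55.6% to 68.2%). The quiescence factor Foxp1 went from 55.6% to 66.8%. Zfp36l2, an RNA-binding protein that destabilises messages in developing lymphocytes, went from 51.9% to 74.1%.

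Of 8 genes of the S100, annexin and galectin list, 4 were lower and 0 higher, near the 51.1% lower over the table, and the list's median turned from -10.6 to 0.05 points when measured from the table's median. Vim went from 55.6% to 28.7%, S100a4 from 29.6% to 11.8%, S100a6 from 37.0% to 19.7% and Lgals3 from 25.9% to 9.6%. These 4 genes are abundant in myeloid cells, and the listed neutrophil and macrophage markers also had the smaller share in the library labelled depleted. Of 7 genes with respiratory chain symbols, Uqcrc1 (55.6% to 74.6%) and Ndufb4c were higher and 0 were lower, where 24.8% of the table was higher. Ndufb4c is annotated as a processed pseudogene, 100% identical to Ndufb4 over 390 bases. All 11 ribosomal protein genes lay within 10 points, the lowest of them Rps6 at 92.6% and 87.9%. Coro1a, Ccr9 and Cd52, the listed genes of migration and adhesion, lay within 10 points, with Cd52 at 51.9% and 47.9%.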

How the data were processed

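The authors aligned 10x Chromium 3′ libraries with Cell Ranger 6.1.1, per the submitters' processing notes, to a GRCm39 reference with added reporter sequences, then filtered, normalized and clustered cells in Seurat. Their methods name no doublet caller, and doublets could not be removed here. For each cluster except cluster 16 they compared both libraries and deposited, per gene, the fraction of cells with a transcript in each library. Checked on the file, every gene of the cluster 6 table reached a fraction of 25.1% in at least 1 library, and the authors' code also limits the tables to a log2 fold change of at least 0.25. The deposited log2 fold changes and p-values are the authors' own comparison over cells and were not used. The text file of their code holds no data.

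Fractions were expressed as percents and subtracted with Python 3.11.15 and pandas 2.3.3. The depth behind the shares of cluster 6 is not in the tables, and with 1 library per group no test was made. Members and gene lists were chosen with earlier results of these data known. The rule for named genes took the 15 largest differences in each direction, the 10 largest in each direction among genes listed in cluster 6 alone, up to 4 members of each of 29 gene lists by size of difference, the targeted genes, Postn, Top2a, Mki67, and genes of at least 14 of 18 tables; other genes were chosen after their values were seen. Some genes that the rule took are not reported here. Alternatives were sizes of 5 and 20 points, centring on the median difference, a log2 ratio of shares after adding 1 percentage point, and other sets of genes or tables. Near copies were found by megablast of the longest GENCODE M39 transcript of each named gene against all transcripts, leaving out genes that overlap it. The counting was tested on simulated tables.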

Additional observations from a re-analysis of the deposited data

Results flagged for a closer look

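A few results of cluster 6 went in the opposite direction in another T cell cluster of the same 2 libraries. None of these differences between clusters was tested, because each cluster has 1 library per genotype. The nonclassical class I gene H2-T22 had a difference of 24.4 points in cluster 6 and -22.2 points in cluster 9. Ly6d had 31.2 points in cluster 6 and -20.6 points in cluster 9. The median difference of the listed S phase genes was -19.4 points in cluster 6 and 12.6 points in cluster 10. The median of the listed G2/M genes was 8.6 points in cluster 6 and -5.5 points in cluster 10, and it was -12.6 points in cluster 9, where 7 were listed, 1 of them in cluster 6 as well. The medians do not cover the same genes in each pair of clusters, and control shares are spaced more widely in clusters 9 and 10 than in cluster 6. Over the 9 S phase genes listed in clusters 6 and 10, the medians were -16.6 points in cluster 6 and 4.0 points in cluster 10, and over the 6 shared G2/M genes they were 12.8 and 1.8 points, so for G2/M genes the opposite sign did not hold over the shared genes.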

How the results depend on the processing

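No paired analysis was possible because only 1 library was made per genotype, and for the same reason no replicate could be left out. The 359 lower and 174 higher genes became 200 and 64 with a size of 20 points, and 233 and 101 among genes that reached 50% of cells in 1 library or both, since both settings keep fewer genes. Centred on the median difference they became 188 and 263, so the larger group changed side. A log2 ratio of shares of at least 0.5 gave 108 higher genes. The 122 genes listed in cluster 6 alone became 252 against the 5 T cell tables only, and 236 where sharing needed the same direction. The S phase median of -19.4 points became -8.8 when centred and -0.32 as a log2 ratio, and the G2/M median of 8.6 points became 19.15 when centred. The median of the S100, annexin and galectin list turned from -10.6 to 0.05 points when centred. Of the 110 named genes, 29 moved to the other side of the size limit when centred and 20 did as a log2 ratio, and none that differed by at least 10 points changed sign. The number of cells per library limits every share, and a difference under 3.7 points cannot be read.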
